A study of Homo sapiens with 12 samples.

Results

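The genes described here encode the digestive enzymes, membrane proteins and proton pump of the lysosome and 2 transcription factors that control them. They were listed by name, 39 in all, and each was read from its probe set with the highest mean over all arrays. Of the 39 genes, 37 had a row of their own on the array, among 22395 named genes. GLB1 and NPC2 were read only by rows shared with another gene and are not described. A gene was tested when its mean log2 expression level over all arrays was at least 5, which 32 of the 39 lysosome genes reached, among 5820 tested genes. The 5 measured lysosome genes below that level were CTSB (mean 4.77), ATP6V1H (4.66), CTSH (3.09), LIPA (2.20) and TFEB (1.53).

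Lysosomes are acidic compartments in which hydrolases break down proteins, sugar chains and lipids that arrive by endocytosis and autophagy. The vacuolar proton pump keeps them acidic, heavily glycosylated LAMP proteins line their membrane, and many genes of the compartment carry a short E-box-like element that TFEB and TFE3 bind when lysosomes are stressed. Quinacrine, an acridine antimalarial, is a weak base that gathers in lysosomes, and erlotinib inhibits the tyrosine kinase of the epidermal growth factor receptor, EGFR.

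RNA came from NCI-H1975, an established human lung adenocarcinoma line whose EGFR carries the L858R and T790M changes, an activating and an erlotinib-resistance mutation, and was read on 12 arrays of the Affymetrix Human Gene 2.1 ST design. The 4 groups all came from this single line. Cells received 1 µM erlotinib together with 3 µM quinacrine for 6, 12, 24 or 48 h (the combination, 4 arrays), 3 µM quinacrine for 6, 12 or 24 h (3 arrays), or 1 µM erlotinib for 6, 12, 24 or 48 h (4 arrays), and 1 array was of untreated cells with no time given. The label of every quinacrine array gives 3 µM; the general treatment text also names 5 µM, which no array's label carries. All groups grew in the same serum-containing medium, and no vehicle is named for the untreated cells. Each treatment and time had 1 array, so the arrays of a group differ in time, n counts time points, and SD is the spread over times. Where the arrays with or without quinacrine are pooled, n counts arrays, and SD is the spread over treatments and times together. The labels do not say whether separate cultures were used, and p-values therefore cover only how far these arrays spread, which may be technical. RNA level alone was measured, and fewer cells of a state and less RNA per cell cannot be told apart in bulk RNA.

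Promoter stretches are shown for the 8 genes whose promoter window held the core of the TFEB and TFE3 element, TCACGTG, before the start. They were taken from RefSeq promoters of GRCh38.p14, written 5′ to 3′ on the gene's strand, with capitals marking TCACGTG on either strand (CACGTGA is its reverse complement). For LAMP1 only the first cluster is shown, 4 of its 6 matches before the start. Matches after the start are not shown, and for CLN3 a single window of several was used. The stretches lie at chr19:7522570-7522623 on the plus strand for MCOLN1, chr6:31862930-31862960 on the minus strand for NEU1, chr17:80101492-80101568 on the plus strand for GAA, chr11:1763956-1763986 on the minus strand for CTSD, chr13:113297034-113297114 on the plus strand for LAMP1, chr16:67481198-67481229 on the minus strand for ATP6V0D1, chr20:45891280-45891328 on the plus strand for CTSA and chr16:28492086-28492116 on the minus strand for CLN3.
MCOLN1: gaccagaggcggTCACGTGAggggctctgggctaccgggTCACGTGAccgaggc
NEU1: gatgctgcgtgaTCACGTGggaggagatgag
GAA: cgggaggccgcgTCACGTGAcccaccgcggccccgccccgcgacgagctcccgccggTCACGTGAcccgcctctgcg
CTSD: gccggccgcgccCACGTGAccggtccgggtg
LAMP1: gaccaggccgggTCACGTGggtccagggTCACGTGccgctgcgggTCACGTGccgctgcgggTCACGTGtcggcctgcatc
ATP6V0D1: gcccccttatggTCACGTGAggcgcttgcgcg
CTSA: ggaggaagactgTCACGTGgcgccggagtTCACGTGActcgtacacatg
CLN3: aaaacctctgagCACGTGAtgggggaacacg

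A promoter window, from 250 bases before to 50 after a gene's start, was at hand for 28 of the 39 lysosome genes. TCACGTG on either strand was found in 8 of these 28 (28.6%), namely ATP6V0D1, CLN3, CTSA, CTSD, GAA, LAMP1, MCOLN1 and NEU1, against 4.49% of 27305 genes (1226 genes). The shorter CACGTG, which TCACGTG contains, was found in 9 of the 28 (32.1%) and in 8.77% of all genes, and the variant TCATGTG in 6 of the 28 (21.4%) and in 3.59% of all genes. Of the further lysosome genes read as context below, 80 had a window. TCACGTG was found in 26.2% of these, CACGTG in 27.5% and TCATGTG in 10.0%. Genes with several start sites have several windows and so more chances of a match.

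The combination 6 h array stood apart from the others. Its median correlation with the other arrays was 0.974, against 0.982 to 0.988 for the rest, and the median level of its tested genes was 6.18, against 6.385 to 6.56 on the others. Of the epithelial markers, EPCAM (8.35 to 8.67), CDH1, KRT7 and KRT19 were measured well above the filter, while KRT8 and KRT18 averaged 2.81 and 4.71. Of 7 macrophage and blood cell markers, PTPRC, CD14, CD163, MRC1, AIF1 and TYROBP averaged at most 1.92, and only CSF1R was tested. The summed log2 level of the 7 markers was 13.85 to 14.97 on the arrays with quinacrine and 13.43 to 14.82 on those without. No fibroblast or endothelial marker reached the filter.

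With quinacrine in the medium, 2 of the 32 tested lysosome genes fell and none rose past the threshold. The 7 arrays with quinacrine (quinacrine and combination) were set against the 5 without (erlotinib and untreated), and 11.8% of all 5820 tested genes passed in this comparison, 277 higher and 410 lower. Both genes that passed were lower. The members' median log2 difference was 0.095, against -0.011 over all tested genes, with 21 of 32 members above 0.

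**Figure D1:**
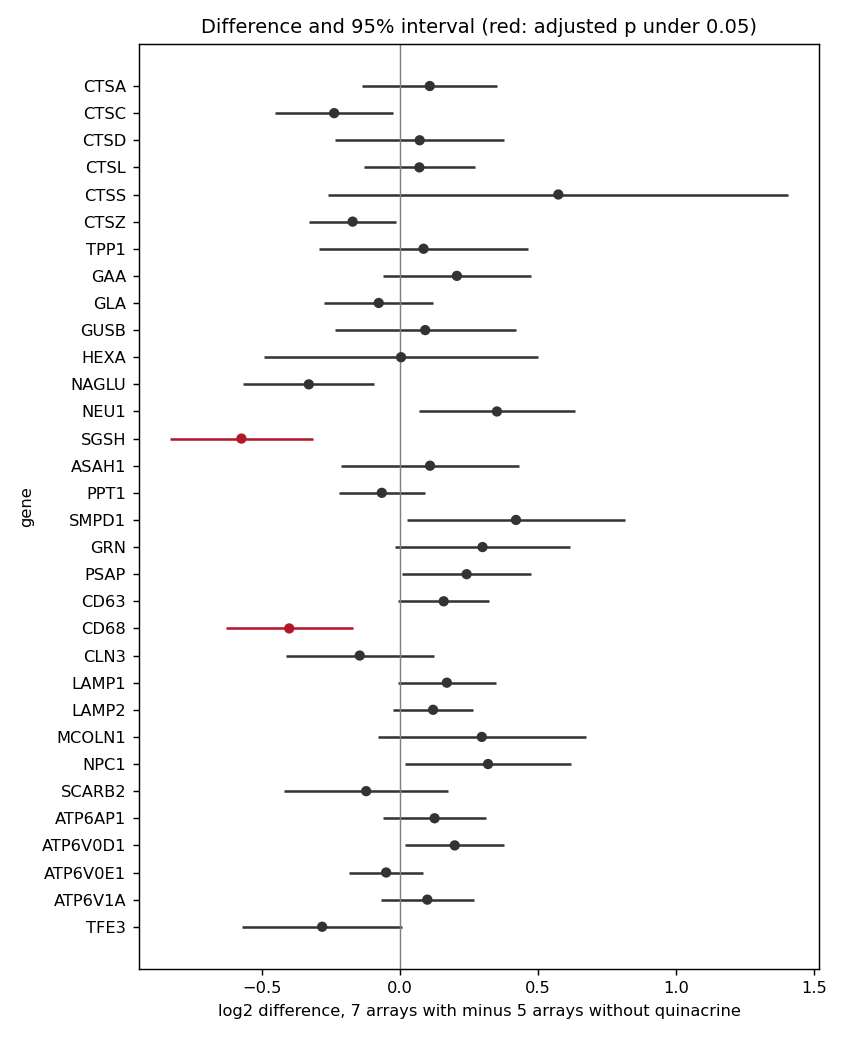
Log2 difference between the 7 arrays with and the 5 arrays without quinacrine (horizontal axis) for the 32 tested lysosome genes (rows, grouped by role), with 95% intervals from limma. The points of SGSH at -0.57 and CD68 at -0.40, in red, passed the threshold, and the widest interval is that of CTSS.

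SGSH encodes sulfamidase, which removes sulfate from heparan sulfate. Its log2 level was 6.35, 6.60, 6.81 and 6.96 in the combination at 6, 12, 24 and 48 h and 6.29, 6.45 and 6.74 in quinacrine at 6, 12 and 24 h. It was 7.05, 7.08, 7.22 and 7.41 in erlotinib at 6, 12, 24 and 48 h and 7.11 in untreated cells. Every array with quinacrine lay below every array without it, a pattern shared by 4.48% of all tested genes and by no other member, while 0 members and 2.34% of all genes had the 7 arrays above the 5. The means were 6.60 ± 0.25 with quinacrine (SD, n = 7) and 7.17 ± 0.15 without (SD, n = 5), a log2 difference of -0.57 (SE 0.12), 1.49-fold lower, with a limma adjusted p of 0.00864. An exact permutation test, two-sided, over the 792 ways of dividing the arrays gave p = 0.00379, where the smallest p possible is 0.00126. This test, also used for CD68, treats all arrays as interchangeable whatever their time and treatment. For SGSH it restates the separation above and is not further evidence. For CD68 it uses the same split of arrays as the limma comparison and is not further evidence either. Its p-values are not adjusted for the number of genes. All 21 alternative settings kept the call.

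**Figure D2:**
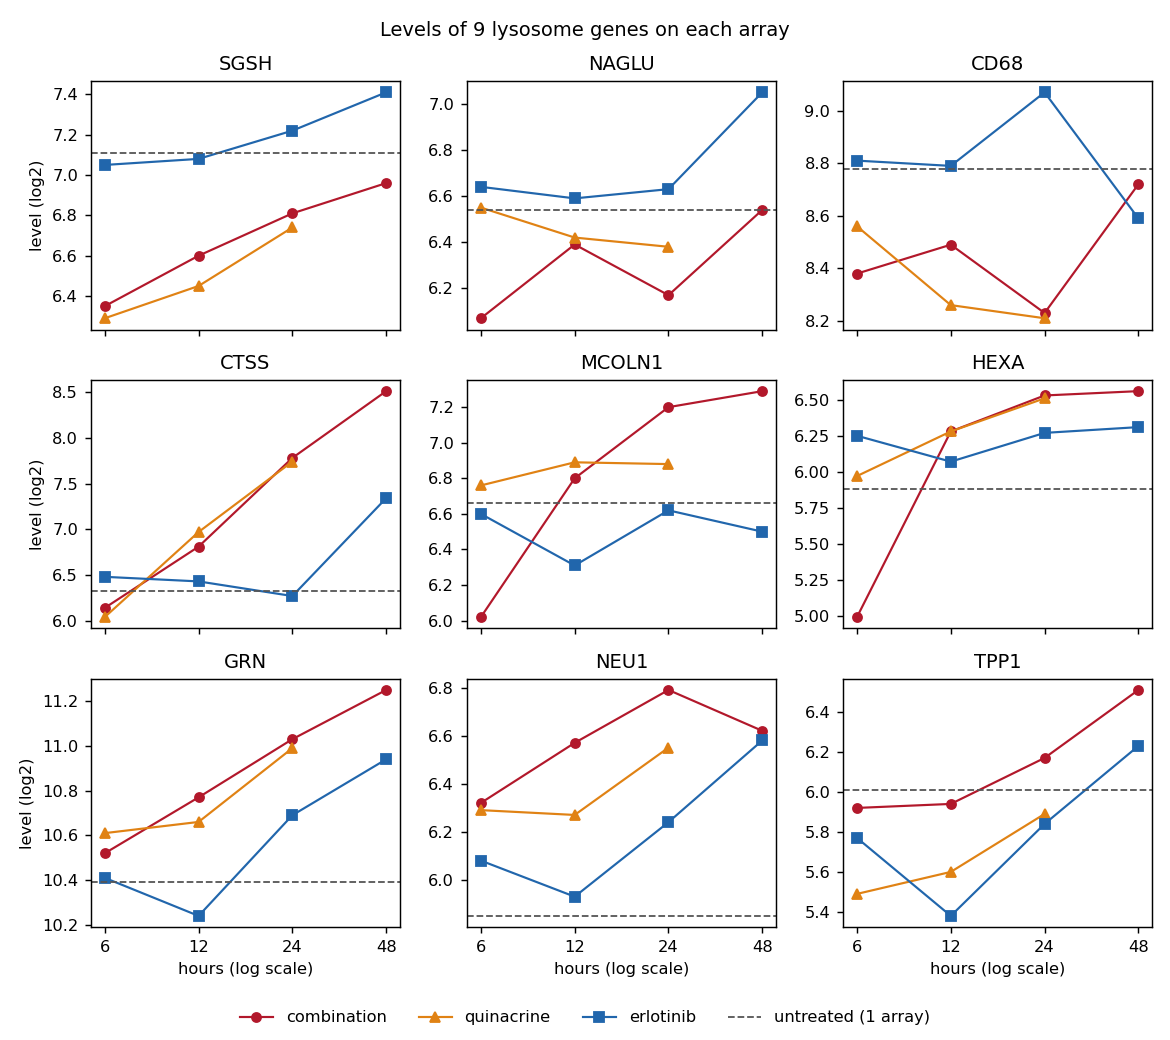
Log2 expression level (vertical axis) against hours of treatment (horizontal axis, log scale) for selected lysosome genes, 1 point per array, with the combination, quinacrine and erlotinib as coloured lines and the untreated array as a dashed line. SGSH lies below its untreated level of 7.11 on all quinacrine-containing arrays, and CTSS climbs to 8.51 in the combination at 48 h.

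SGSH was also the single member past the threshold when the combination was compared with erlotinib at matched times, and when quinacrine was. These 2 comparisons share the erlotinib arrays. The combination lay below erlotinib by 0.51 (SE 0.094, adjusted p = 0.0319) and quinacrine lay below it by 0.61 (SE 0.10, adjusted p = 0.0401). The percentages of all tested genes called were 3.64 and 1.13. Leaving out the erlotinib 12, 24 or 48 h array, any quinacrine array or the combination 12, 24 or 48 h array ended both calls. Without these arrays the combination difference was -0.55 to -0.51 with adjusted p of 0.0602 to 0.144, and the quinacrine difference was -0.66 to -0.59 with adjusted p of 0.0631 to 0.265.

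CD68, a heavily glycosylated membrane protein of late endosomes and lysosomes that is also used as a macrophage marker, was the other member to fall. Its log2 level was 8.38, 8.49, 8.23 and 8.72 in the combination over the 4 times and 8.56, 8.26 and 8.21 in quinacrine. It was 8.81, 8.79, 9.07 and 8.59 in erlotinib and 8.78 in untreated cells. Only the combination 48 h and erlotinib 48 h arrays overlapped between the arrays with and without quinacrine. The means were 8.41 ± 0.19 with quinacrine (SD, n = 7) and 8.81 ± 0.17 without (SD, n = 5), a difference of -0.40 (SE 0.11, adjusted p = 0.0279, exact permutation p = 0.00631). NAGLU, which was not called, had a smaller exact permutation p of 0.00505. CSF1R, the tested macrophage marker, had 6.13 to 7.09 with quinacrine and 5.95 to 6.55 without, and its part in the result was not tested. This call was lost in 10 of 21 alternatives. With time as a factor on the 11 treated arrays the difference was -0.40 with an adjusted p of 0.0915, with no filter on the mean the adjusted p was 0.0841, and with median centring it was 0.0504. The others were the fits without the untreated array, the erlotinib 6, 12 or 24 h array, the quinacrine 12 or 24 h array or the combination 24 h array, where the difference was -0.41 to -0.34 and the adjusted p 0.0509 to 0.0746.

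Among the enzymes of sugar chains, NAGLU and NEU1 lay furthest from erlotinib in the combination after SGSH, without passing. In quinacrine GAA (0.23), NEU1 (0.23) and NAGLU (-0.18) followed SGSH, also without passing. NAGLU, which like SGSH acts on heparan sulfate, had 6.07, 6.39, 6.17 and 6.54 in the combination, 6.55, 6.42 and 6.38 in quinacrine, 6.64, 6.59, 6.63 and 7.05 in erlotinib and 6.54 untreated. It was below erlotinib at every matched time in the combination, with a mean difference of -0.44 (SE 0.10, adjusted p = 0.0594), and its difference between the arrays with and without quinacrine was -0.33 (SE 0.11, adjusted p = 0.068). NEU1, the sialidase that trims sialic acids, had 6.32, 6.57, 6.79 and 6.62 in the combination, 6.29, 6.27 and 6.55 in quinacrine, 6.08, 5.93, 6.24 and 6.58 in erlotinib and 5.85 untreated, the lowest of its values. Its combination minus erlotinib difference was 0.37 (SE 0.12, adjusted p = 0.126).

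GAA, which breaks down lysosomal glycogen, averaged 7.36 ± 0.27 in the combination and 7.11 ± 0.28 in erlotinib (SD, n = 4 each), with an adjusted p of 0.241. GLA and GUSB differed between the combination and erlotinib by -0.08 and 0.11. HEXA, a subunit of the enzyme that cleaves GM2 ganglioside, is described with the time courses.

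Matched times can also be counted without a model. The combination was above erlotinib at all 4 times for 7 of the 32 members (21.9%), CD63, GAA, GRN, LAMP1, NEU1, PSAP and TPP1, as were 9.21% of all tested genes. It was below at all 4 times for 3 members (9.38%), CTSC, NAGLU and SGSH, against 14.3% of all tested genes. The members' median difference in the combination minus erlotinib comparison was 0.072, with 19 of 32 above 0, against -0.027 for all tested genes. In quinacrine minus erlotinib the members' median was 0.105 and that of all genes 0.014.

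Of the 7 tested peptidases none passed between groups and 1 passed in its time course in the combination. That time course was called in 4.97% of all tested genes (274 up, 15 down). The peptidase that passed, CTSS, is an elastinolytic cathepsin that also trims the invariant chain of MHC class II. It had 6.14, 6.81, 7.78 and 8.51 in the combination at 6, 12, 24 and 48 h, 6.04, 6.97 and 7.74 in quinacrine at 6, 12 and 24 h, 6.48, 6.43, 6.27 and 7.34 in erlotinib and 6.32 untreated. Its level was highest on the combination 48 h array and below untreated on both 6 h arrays with quinacrine. Averaged over times, the combination minus erlotinib difference was 0.68 (SE 0.29, adjusted p = 0.231), made up of -0.34, 0.38, 1.51 and 1.17 at 6, 12, 24 and 48 h. It was 1.03 and passed without the erlotinib 6 h array (adjusted p = 0.0256) and was 0.39 without the erlotinib 24 h array (adjusted p = 0.502), within a range of 0.0256 to 0.502 over the settings run. Its slope with time in the combination, 0.81 log2 units per doubling of hours (SE 0.11, adjusted p = 0.00941), passed the threshold.

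Slopes were also fitted in the other arms. The CTSS slope was 0.85 in quinacrine over its 3 times and 0.24 in erlotinib, and the test of combination minus erlotinib gave 0.57 (SE 0.15, adjusted p = 0.17). This slope difference was 0.35 without the erlotinib 6 h array and 0.91 without the erlotinib 48 h array, neither past the threshold. The slope in the combination no longer passed without the combination 6 h or the combination 48 h array, at values of 0.82 to 0.85 with adjusted p of 0.0612 to 0.185. Of 6 interferon pathway genes listed beside CTSS, 5 were measured and 2 were tested. B2M, the light chain of MHC class I, had a slope of 0.34 in the combination (adjusted p = 0.0223) and a difference of 0.17 between the arrays with and without quinacrine (adjusted p = 0.534). IRF1, an interferon-responsive transcription factor, was higher with quinacrine, at 5.83 ± 0.28 on 7 arrays against 4.82 ± 0.20 on 5 (SD), with a difference of 1.01 (adjusted p = 0.000739), and its slope in the combination was 0.20 (adjusted p = 0.171).

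The other peptidases varied less. CTSD, the aspartic cathepsin, had 10.42, 10.69, 10.94 and 11.03 in the combination, 10.46, 10.70 and 10.95 in quinacrine, 10.52, 10.39, 10.83 and 11.09 in erlotinib and 10.52 untreated. All arms had their lowest CTSD level at 6 or 12 h and their highest at their last time. Its combination minus erlotinib difference was 0.06 with a 95% interval of -0.17 to 0.29. CTSA, the protective protein of the sialidase and galactosidase complex, ran from 9.67 to 10.21 with quinacrine and from 9.63 to 10.19 without. CTSB, the most studied cysteine cathepsin, lay below the filter and spanned 4.58 to 5.18 with quinacrine and 4.44 to 4.94 without.

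TPP1, a tripeptidyl peptidase whose loss causes neuronal ceroid lipofuscinosis, had 5.92, 5.94, 6.17 and 6.51 in the combination, 5.49, 5.60 and 5.89 in quinacrine, 5.77, 5.38, 5.84 and 6.23 in erlotinib and 6.01 untreated. The combination was above erlotinib and above quinacrine at every shared time, by 0.33 (SE 0.11, adjusted p = 0.13) and 0.34 (SE 0.12, adjusted p = 1, unadjusted p = 0.0191). CTSC differed from erlotinib by -0.26 and CTSZ by -0.17 in the combination, neither past the threshold, and CTSL by -0.03.

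The soluble cofactors GRN and PSAP lay above erlotinib on the quinacrine-containing arrays, without passing. GRN, the precursor of the granulins, had 10.52, 10.77, 11.03 and 11.25 in the combination, 10.61, 10.66 and 10.99 in quinacrine, 10.41, 10.24, 10.69 and 10.94 in erlotinib and 10.39 untreated, a combination minus erlotinib difference of 0.32 (SE 0.097, adjusted p = 0.114). PSAP, the precursor of the saposins that present sphingolipids to their hydrolases, averaged 10.32 ± 0.26 in the combination and 10.04 ± 0.17 in erlotinib (SD, n = 4 each), a difference of 0.28 (SE 0.092, adjusted p = 0.138). In both genes every combination array was above the erlotinib array of the same time.

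Of the lipid-cleaving enzymes, SMPD1, acid sphingomyelinase, is known to be displaced from lysosomal membranes by cationic amphiphilic drugs. Its RNA level was 5.62, 5.91, 6.27 and 5.58 in the combination, 5.74, 5.55 and 6.28 in quinacrine, 5.49, 4.83, 5.80 and 5.74 in erlotinib and 5.29 untreated. The groups overlapped and the combination minus erlotinib difference of 0.38 (SE 0.18, adjusted p = 0.268) was not past the threshold. ASAH1, acid ceramidase, and PPT1, a palmitoyl-protein thioesterase, differed by 0.13 and -0.08. LIPA, acid lipase, stayed between 1.96 and 2.52 on all arrays, below the filter.

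Among the membrane proteins, MCOLN1, a lysosomal calcium channel, was the one with a called time course. It had 6.02, 6.80, 7.20 and 7.29 in the combination at 6, 12, 24 and 48 h, 6.76, 6.89 and 6.88 in quinacrine, 6.60, 6.31, 6.62 and 6.50 in erlotinib and 6.66 untreated. The combination 6 h array was the lowest of all 12 and its later 3 arrays were above all erlotinib arrays. The slope in the combination was 0.42 per doubling (SE 0.081, adjusted p = 0.0303), while slopes were 0.06 in quinacrine and 0.00 in erlotinib, and the slope difference from erlotinib was 0.42 (SE 0.11, adjusted p = 0.17), or 0.24 without the combination 6 h array.

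HEXA also had its lowest level on the combination 6 h array, with 4.99, 6.28, 6.53 and 6.56 in the combination, 5.97, 6.28 and 6.51 in quinacrine, 6.25, 6.07, 6.27 and 6.31 in erlotinib and 5.88 untreated. Its slope of 0.50 per doubling (SE 0.11, adjusted p = 0.0442) rests on the combination 6 h array, since without that array it was 0.14. For MCOLN1 and HEXA the call was lost without the erlotinib 24 or 48 h array, any quinacrine array or the combination 6, 24 or 48 h array. The MCOLN1 slope then lay between 0.24 and 0.59 (adjusted p 0.055 to 0.461) and the HEXA slope between 0.14 and 0.77 (adjusted p 0.055 to 0.632).

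Slopes with time in the combination passed in 3 of 32 members, all upward, and in 4.97% of all tested genes (274 up, 15 down). The median slope was 0.100 for members and 0.078 for all tested genes, and centring the arrays on their medians took the members' median slope to -0.010. No member's slope differed from that in erlotinib past the threshold, where 0.103% of all tested genes did. An unadjusted limma p under 0.05 was reached by 3 of 32 members and by 885 of 5820 tested genes. The largest slope differences upward were CTSS, HEXA at 0.46 (0.10 without the combination 6 h array and 0.73 without the combination 48 h array), MCOLN1 and TFE3 at 0.14, and those downward NPC1 at -0.18, SMPD1 at -0.15, ASAH1 at -0.11 and ATP6V1A at -0.08. Levels higher at each later time in the combination were seen for 11 of 32 members (34.4%) and for 17.2% of all tested genes.

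NPC1, which exports cholesterol from the lysosome, had 9.14, 9.38, 9.42 and 9.32 in the combination, 9.16, 9.31 and 9.39 in quinacrine, 8.93, 8.69, 9.05 and 9.60 in erlotinib and 8.65 untreated. The untreated level was the lowest and the erlotinib 48 h level the highest, so the arrays with quinacrine lay inside the range of those without. LAMP1, the main structural membrane protein, had 8.22, 8.42, 8.36 and 8.55 in the combination, 8.25, 8.28 and 8.34 in quinacrine, 8.20, 7.96, 8.25 and 8.33 in erlotinib and 8.14 untreated. The combination was above erlotinib by 0.20 (SE 0.10, adjusted p = 0.297), and LAMP2 by 0.08.

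CD63, a tetraspanin of late endosomes, was 0.16 above erlotinib in the combination, CLN3 0.14 below and SCARB2, the receptor that delivers glucocerebrosidase, 0.20 below. None of the 3 passed.

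The proton pump genes showed small differences. ATP6V0D1, a subunit of the membrane sector, had 9.08, 9.20, 9.40 and 9.10 in the combination, 9.06, 9.17 and 9.28 in quinacrine, 8.98, 8.82, 8.92 and 9.18 in erlotinib and 9.03 untreated, with a combination minus erlotinib difference of 0.22 (SE 0.11, adjusted p = 0.313). The combination exceeded erlotinib at 6, 12 and 24 h and not at 48 h. ATP6AP1, an accessory subunit, and ATP6V1A, the catalytic subunit, differed by 0.11 and 0.07, and ATP6V0E1 by -0.05. ATP6V1H, below the filter, spanned 4.60 to 5.06 with quinacrine and 4.14 to 4.62 without.

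Of the transcription factors, TFE3 was tested and TFEB was not. TFE3 had 6.50, 6.79, 6.79 and 6.94 in the combination, 6.24, 6.18 and 6.86 in quinacrine, 6.84, 6.96, 7.0 and 6.81 in erlotinib and 6.87 untreated. The 6 and 12 h quinacrine arrays were the lowest, and the quinacrine minus erlotinib difference of -0.46 (adjusted p = 0.167) was not past the threshold. TFEB stayed between 1.15 and 1.68 on 11 arrays and read 2.44 on the combination 48 h array. RNA level does not report the nuclear entry through which both factors are controlled.

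**Figure D3:**
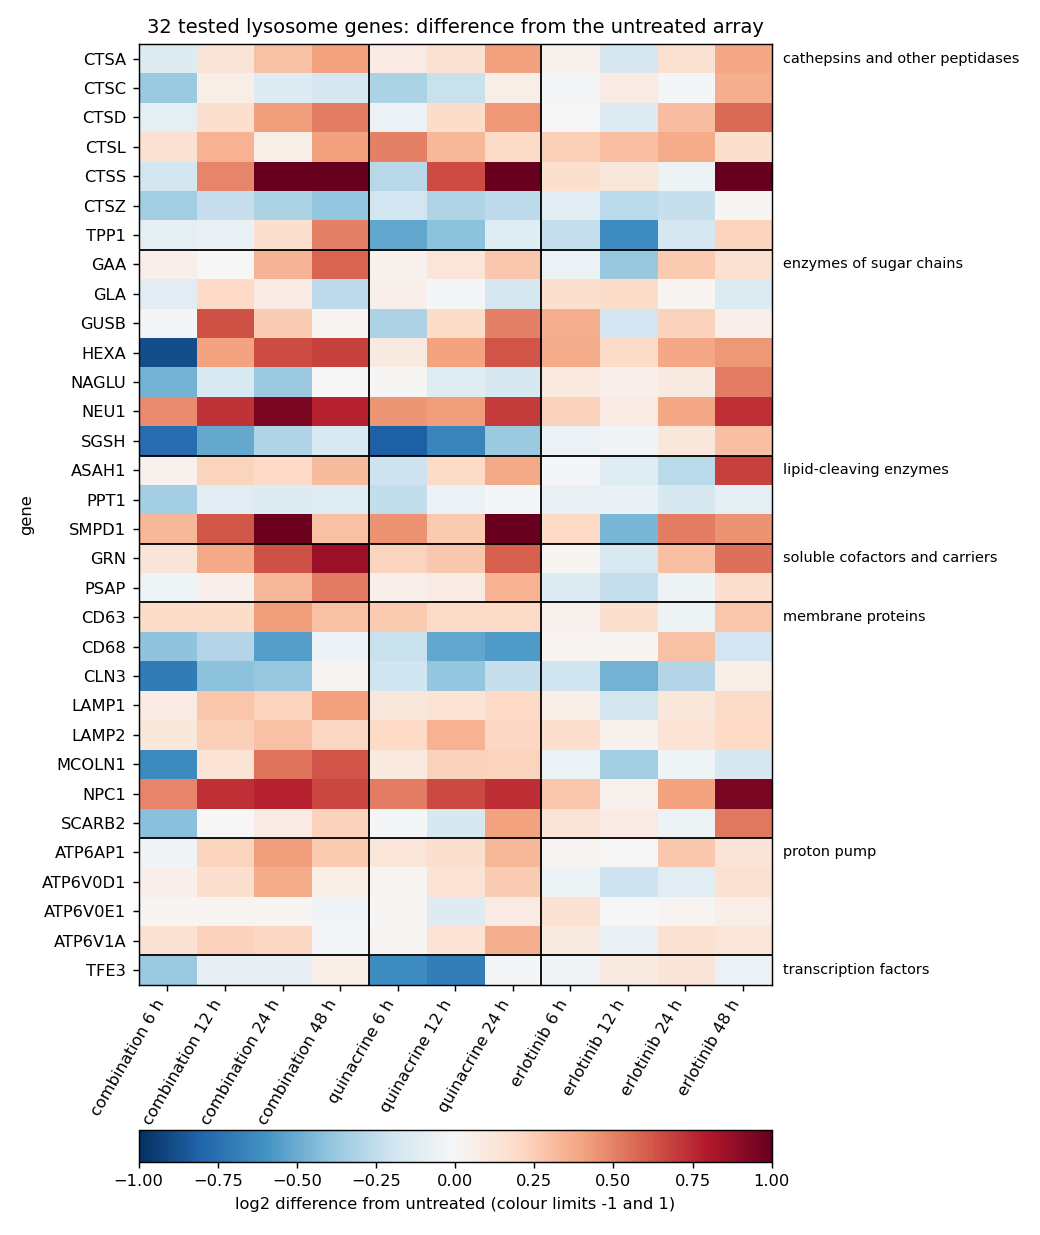
Log2 difference from the untreated array for each of the 32 tested lysosome genes (rows, grouped by role) on each of the 11 treated arrays (columns, combination, then quinacrine, then erlotinib, each by hours), with red above and blue below untreated and colours capped at -1 and 1. CTSS reaches 2.19 in the combination at 48 h, HEXA is 0.89 below untreated in the combination at 6 h, and the SGSH row is blue in both groups with quinacrine.

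No member separated the combination from quinacrine alone at matched times, and 0% of all tested genes did. The median member difference was -0.014, the median half-width of the 95% interval 0.276, and 1 member, TPP1, had an unadjusted p under 0.05. The largest differences were 0.34 for TPP1, 0.31 for TFE3, 0.15 for GUSB and 0.14 for NEU1 upward, and -0.26 for HEXA, -0.25 for NAGLU, -0.21 for CLN3 and -0.20 for SCARB2 downward, each with a limma adjusted p of 1. The intervals are not adjusted for the number of genes, and even the TPP1 difference, larger than that half-width, did not pass. Differences of that size or smaller could therefore be missed with these arrays.

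Against the lone untreated array, which was assumed to vary like the treated ones, no member passed in any treated group. The percentages of all tested genes that did were 0.0515 in the combination, 0.0344 in quinacrine and 0 in erlotinib. The members with an unadjusted limma p under 0.05 numbered 3 of 32 in the combination, 2 in quinacrine and 0 in erlotinib. Of all 5820 tested genes, 649, 599 and 144 had such a p. The members' medians were 0.184, 0.147 and 0.091, against -0.005, 0.020 and 0.022 for all tested genes. These comparisons share the untreated array. In the combination the largest differences were CTSS at 0.99, NEU1 at 0.73, NPC1 at 0.67 and SMPD1 at 0.55 upward, and SGSH at -0.43, CLN3 at -0.37, CTSZ at -0.32 and CD68 at -0.32 downward. In quinacrine NPC1 was at 0.64, CTSS at 0.60, SMPD1 at 0.57 and NEU1 at 0.52, while SGSH was at -0.62, TFE3 and CD68 at -0.44 each and TPP1 at -0.35. In erlotinib NPC1 at 0.42, NEU1 at 0.36, HEXA at 0.34 and CTSS at 0.31 stood highest, and CLN3 at -0.23, TPP1 at -0.21, MCOLN1 at -0.15 and CTSZ at -0.15 lowest.

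By the combination 48 h array, 10 of the 32 members (31.2%) were at least 0.5 above untreated, CTSD, CTSS, GAA, GRN, HEXA, MCOLN1, NEU1, NPC1, PSAP and TPP1, as were 12.7% of all tested genes. None was 0.5 below, against 6.6% of all genes. On the combination 6 h array the count was 0 higher and 4 lower, where 25.7% of all tested genes were at least 0.5 below untreated. On the erlotinib 48 h array 8 members were at least 0.5 above untreated, against 10.4% of all genes.

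**Figure D4:**
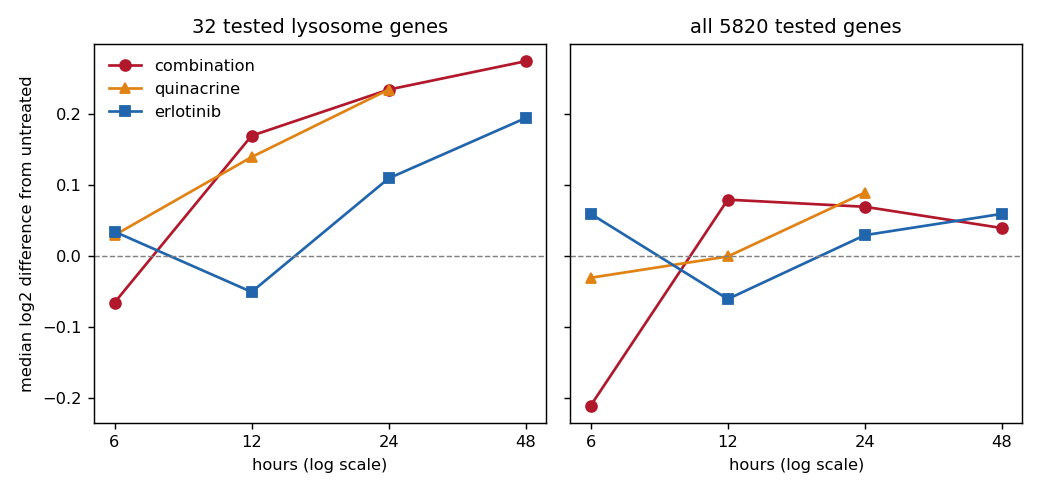
Median log2 difference from the untreated array (vertical axis) against hours (horizontal axis, log scale) for the 32 tested lysosome genes (left) and all 5820 tested genes (right), 1 point per array. The members' median climbs to 0.275 in the combination and 0.195 in erlotinib at 48 h, while the all-gene median starts at -0.21 on the combination 6 h array.

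A further 103 genes of lysosomal enzymes, membrane proteins, sorting and regulation were read as context, of which 45 were tested. With quinacrine 2 rose and 4 fell, 13.3% of the 45 against 11.8% of all tested genes, a share near the background. PLA2G15, a lysosomal phospholipase, was 0.43 higher (adjusted p = 0.00969) and ATP6V1E1, a proton pump subunit, 0.40 higher (adjusted p = 0.00744). TMEM175, a lysosomal potassium and proton channel, was lower by 0.72 (adjusted p = 0.00269), at 4.60 to 5.34 with quinacrine and 5.67 to 6.04 without, and it was the 1 gene of this set that also passed in combination minus erlotinib, at -0.64 (adjusted p = 0.0337), and in quinacrine minus erlotinib, at -0.83 (adjusted p = 0.039). DPP7, GM2A and GNPTAB, the last of which adds the sorting tag of lysosomal enzymes, had differences of -0.51, -0.36 and -0.30. In all 6 genes the arrays with quinacrine lay wholly on one side of those without. Over the 45 genes, 3 had all arrays with quinacrine above the others (6.67%, against 2.34% of all tested genes) and 4 had them below (8.89%, against 4.48%). Slopes in the combination passed for 3 of the 45, 6.67% against 4.97% of all tested genes, namely GALNS at 0.32, LGMN at 0.24 and IGF2R at 0.30 per doubling. In quinacrine and erlotinib the slopes were -0.30 and -0.02 for GALNS, 0.17 and 0.09 for LGMN and 0.29 and 0.07 for IGF2R. The lowest GALNS level of all 12 arrays, 6.27, was on the combination 6 h array.

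The 8 members with TCACGTG in a promoter window were set beside the 15 tested members with a window and no match. The remaining tested members, SGSH, NAGLU, CTSS, HEXA, PSAP, LAMP2, ASAH1, ATP6V0E1 and ATP6V1A, had no window at hand and were in neither set. They include SGSH and NAGLU, the members lowest in combination minus erlotinib. The median combination minus erlotinib difference of the 8 was 0.21, with 7 of 8 above 0, and that of the 15 was -0.03, with 7 above 0. In quinacrine minus erlotinib the medians were 0.21 and 0.00, and between the arrays with and without quinacrine 0.18 and 0.07. Against untreated cells they were 0.21 and 0.12 in the combination and 0.17 and 0.07 in quinacrine, while in erlotinib the order was the other way, 0.02 and 0.11. The median slope in the combination was 0.18 and 0.06, that of the slope difference from erlotinib 0.03 and 0.04, and combination minus quinacrine gave -0.02 and 0.00. These comparisons share arrays. The match is a description of these letters in the window, and the medians were not tested against each other.

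Over the 12 arrays the tested genes outside the list that were most like the mean of the centred members were BST2 (Pearson r 0.961), HCP5 (0.957), MVP (0.954), CTDSP2 (0.952) and XRN1 (0.950). Within the list CTSD and CTSA had r of 0.949 and PSAP and GRN of 0.945. These are descriptions over 12 arrays that share a cell line, a normalization and the low combination 6 h array. GLA at -0.455 and CD68 at -0.251 ran against the mean of the other members.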

How the data were processed

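The authors ran RMA in Affymetrix Expression Console 1.30, per the labels, which corrects background, equalises the distributions of the arrays by quantiles and gives log2 levels, and probes were annotated to hg19. These deposited log2 levels were used unchanged. Of 53617 rows, a single gene symbol was given for 23871, several for 1842 and no symbol for 27904, and only the first kind was named. The row with the highest mean stood for a gene, and genes with a mean of at least 5 were tested.

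The members and lists were chosen with earlier results of these data known. Tests used lmFit and eBayes of limma 3.58.1, run under R 4.3.3. P-values were adjusted by Benjamini-Hochberg over all 5820 tested genes, at a threshold of 0.05. Treated groups were compared on the 11 treated arrays with time as a factor, so the residual is departure from additivity of treatment and time, not replicate error. Arrays with and without quinacrine, and treated groups and untreated cells, were compared over all 12 arrays with no time term. Slopes per doubling of hours were fitted within each treated group. The procedure was also run on simulated data with independent noise and no shared array effects, so that run does not vouch for the calls made here. Named genes were the members past the threshold in a comparison, else the 4 largest differences each way, plus TFEB, TFE3, LAMP1, CTSD, CTSB, MCOLN1, NPC1 and the proton pump genes; the other members were described by role. Other lysosome genes were named where they passed. IRF1 and B2M, from a short interferon list, and the likeness genes stand beside that rule. Other settings tried were the filter, the rows, the scaling, array weights, the prior, the arrays and times in the fit and leaving out each array. Arrays carry no read depth, and their number limits the precision. Promoters came from RefSeq tables of GRCh38.p14.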

Additional observations from a re-analysis of the deposited data

Results flagged for a closer look

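In 74 groups of 4 arrays (the combination or erlotinib times of each measured lysosome gene), 4 held an array far from the other 3 by Dixon's test, a rule that chance meets in about 1 of 20 groups. NAGLU was at 7.05 in erlotinib at 48 h, against 6.59 to 6.64 at the other times. PPT1 was at 7.97 in the combination at 6 h, against 8.18 to 8.20. ATP6V0E1 was at 10.59 in the combination at 48 h, against 10.64 to 10.65, a gap of under 0.1 log2 units. ATP6V1H, below the filter, was at 4.34 in erlotinib at 12 h, against 4.60 to 4.62.

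TPP1 had differences of opposite sign for quinacrine with and without erlotinib. It averaged 0.33 higher in the combination than in erlotinib over 4 times, all 4 higher, and its quinacrine minus untreated difference was -0.35 over 3 times, all 3 lower. Erlotinib alone also differed from that array, by -0.24, -0.63, -0.17 and 0.22 at 6, 12, 24 and 48 h. At matched times quinacrine minus erlotinib was -0.01 (SE 0.12). The contrast between the opposite signs was not tested, and the quinacrine minus untreated comparison rests on the lone untreated array.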

How the results depend on the processing

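No called member changed direction under any setting run. The calls of the other lysosome genes, IRF1 and B2M were not followed under the other settings. The members' median in combination minus quinacrine (-0.014), and that of the slope difference between combination and erlotinib (0.031), both near 0, changed sign in 10 and 5 settings. The number of members past the threshold in combination minus erlotinib, 1 as reported, was 0 with no filter on the mean, with the 6, 12 and 24 h arrays only, with no time term, with the 8 erlotinib and combination arrays only and with combination 6 h and erlotinib 12 h both left out. It was 2 with array weights and 3 with cyclic loess, with median centring and with a trended robust prior, and 0 to 2 when single arrays were left out. In quinacrine minus erlotinib, 1 as reported, it was 0 with no filter, with the 6, 12 and 24 h arrays and with no time term, 2 with a trended prior, 4 with array weights and 0 to 2 with single arrays left out. Between the arrays with and without quinacrine, 2 as reported, it was 1 with no filter, 4 with cyclic loess and with the 6, 12 and 24 h arrays, 12 with array weights and 1 to 4 with single arrays left out. Against untreated cells, 0 as reported, array weights gave 3 in the combination and 2 in quinacrine. For slopes in the combination, 3 as reported, it was 0 with the 6, 12 and 24 h arrays, with hours on a linear scale and with combination 6 h and erlotinib 12 h both left out, 1 with no filter and with array weights, 5 with cyclic loess, 6 with a trended prior and 0 to 4 with single arrays left out. The members' median slope was -0.010 with median centring, against 0.100. The causes were not tested. The fit with no replicate block (no time term) is the one without matched times; no numbers in the labels pair the arrays otherwise. NAGLU passed in combination minus erlotinib with cyclic loess (adjusted p = 0.0304), median centring (0.0391) and array weights (0.0411). Members higher in the combination also passed in some of the 21 alternatives. GRN did in 2 (smallest limma adjusted p 0.0228), NEU1 in 1 (0.0464), PSAP in 1 (0.0318) and CTSS in 1 (0.0256). Between the arrays with and without quinacrine, NEU1, which was higher, passed in 5 of 21 (smallest limma adjusted p 0.00857). NAGLU, which was lower, passed in 2 (0.0203).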
